A study of Homo sapiens with 6 samples.

Results

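The 40 genes described here encode the NRF2 regulators, a set of their target enzymes, and the glutathione, thioredoxin, superoxide and NADPH enzymes of the antioxidant system. They were chosen by gene name, with earlier results of these data known, so counts set against the share of all rows are descriptions. All 40 had a row among the 29435 rows of the deposited table. The cells carry the label HepG2, an established human hepatocyte-like tumour line, and were kept in DMEM with serum before 4 h of DMSO, the vehicle (3 libraries), or of saikosaponin A at 20 µM (3 libraries). Saikosaponin A is a plant triterpenoid saponin obtained from Bupleurum. Replicates are numbered 1 to 3 per group, and whether they were separate cultures is not stated, so the tests measure the spread between these libraries only. The comparison asked which transcripts differed after treatment.

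NRF2, encoded by NFE2L2, is a transcription factor that KEAP1 binds and hands to a ubiquitin ligase for degradation. When electrophiles or oxidants modify KEAP1, NRF2 accumulates and, paired with a small MAF protein, binds antioxidant response elements near genes for glutathione synthesis, thioredoxin reduction, NADPH supply and quinone or carbonyl reduction. Peroxiredoxins and glutathione peroxidases remove peroxides and are recharged by thioredoxin and glutathione, which draw their electrons from NADPH made in part by the pentose phosphate pathway. NRF2 is regulated mostly through its protein, which RNA levels do not show.

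Depth was 57768359 to 74912492 counts per library. Mitochondrially encoded genes took 14.9% of the counts in DMSO replicate 3 and 18.8% in saikosaponin A replicate 1, against 6.19% to 8.28% in the other 4 libraries. Of 18 hepatocyte markers only 9 had a row. Of these 9, 8 had a mean below 0.1 FPKM (fragments scaled by transcript length and library size), among them HNF4A, APOA1 and TF. These defining transcripts were thus near 0 in cells labelled as a liver line, and the identity of the cells was not tested. The exception was FOXA1, and the summed FPKM of the list was 3.10 to 4.28 in DMSO and 1.84 to 2.37 with saikosaponin A. Of 6 fibroblast markers with a row, COL1A1, COL3A1 and PDGFRB were above 1 FPKM on average, and the list summed to 33.5 to 44.4 FPKM in DMSO and 28.2 to 34.7 with saikosaponin A. Of 8 other epithelial markers 6 had a row, and the keratin genes KRT8, KRT18 and KRT17 were above 1 FPKM. That list summed to 705, 718 and 538 FPKM in DMSO and to 657, 825 and 826 with saikosaponin A. The lowest sums within each group were in DMSO replicate 3 and saikosaponin A replicate 1. Of 5 leukocyte markers 2 had a row, and CD68 was above 1 FPKM. The leukocyte list summed to 1.34 to 4.34 FPKM in DMSO, highest in replicate 3, and to 0.904 to 2.86 with saikosaponin A, highest in replicate 1. The 4 endothelial markers were all below 1 FPKM. The part of these markers in the results was not tested.

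Most of the antioxidant genes were higher after saikosaponin A, each by less than 2-fold, while NFE2L2, KEAP1 and several much-used NRF2 targets (GCLC, GCLM, TXNRD1 and SRXN1) were not. This contrast is from the fit without a length correction. With the correction by longest transcript, described below, 9 members rose and SRXN1 fell (log2 fold change -0.27). GCLC, GCLM and TXNRD1 then stood at -0.03, 0.02 and 0.01, and TXN at -0.0080. Of the 38 members tested (FPKM of at least 1 in at least 3 libraries), 26 rose and 1 fell at an adjusted p below 0.05 (edgeR quasi-likelihood test, Benjamini-Hochberg over all rows). Over all 11427 tested rows, 25.9% rose and 27.9% fell. DESeq2 called 27 members higher and 1 lower, against 29.2% and 30% of all tested rows. The median log2 fold change was 0.51 for the members and 0.03 for all tested rows. In bulk RNA a change in the kinds of cells and a change of RNA per cell cannot be told apart. The CPM (counts scaled to a common library size with TMM factors) of the 2 groups did not overlap in 28 members, 25 of them higher and 3 lower, against 30.4% of all tested rows higher and 32.4% lower. On scales that divide by other totals the medians lay lower for members and background alike, at 0.35 and -0.11 with deposited FPKM and at 0.15 and -0.31 with TPM, so changes are given here relative to the TMM scaling. With limma on these scales 8 members rose and 1 fell with FPKM, where 914 of all rows rose and 3723 fell; with TPM no member passed either way, and 49 rows rose and 2446 fell.

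Transcript length ran alongside these changes. Over 10040 protein-coding genes the log2 fold change had a Spearman correlation of -0.72 with the length of the longest annotated transcript, and over the 38 members, which share the same libraries, it was -0.68. Of the 16 tested members with a longest transcript under 2000 nt, 15 rose. Of the 22 longer ones, 11 rose. The share of all tested rows called in these 2 length classes was not computed. Protein-coding genes had a median log2 fold change of 0.78 under 1000 nt and 0.45 from 1500 to 2000 nt. The median was 0.23 from 2000 to 3000 nt and -0.56 from 6000 nt upward. In protein-coding genes of 1000 to 1500 nt the median log2 fold change was 0.61, and the median of the 5 members of that length (GPX1, GSTO1, PRDX1, PRDX4 and TALDO1) was 0.74. Each library's slope of log2 CPM, relative to the libraries' mean, was 0.18 to 0.27 per length doubling in DMSO and -0.25 to -0.16 with saikosaponin A. The trend thus separated the groups, and removing it can also remove a treatment difference that follows length. The cause of the trend was not tested. When each library's linear trend on log2 length was removed, 9 members rose and 1 fell, against 16.6% and 15.9% of all tested rows, and 8 of the 26 rises kept their call. With the length of the APPRIS principal transcript instead, 13 rose (background 13.8%), and 12 of the 26 kept their call. With a length read from the ratio of deposited counts to FPKM, 16 rose and 1 fell (background 20.5% and 20.2%), and 15 of the 26 kept it.

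Among the members, 7 rose in the fit without a length correction and in all 3 fits with one: NQO1, AKR1C1, AKR1C2, GSS, GSTP1, GSTM3 and TKT. Of all tested rows 5.84% did so. No member was lower in all 4 edgeR fits, GCLM standing at 0.02 with the correction, against 10.4% of all rows. They cover quinone and carbonyl reduction, glutathione synthesis and conjugation, and the pentose phosphate pathway, and hold no peroxiredoxin or thioredoxin gene. The longest annotated transcript need not be the one expressed. For TKT the longest has 7286 nt and the principal one 3010 nt, and its corrected log2 fold change was 0.85 with the first and 0.37 with the second.

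**Figure D1:**
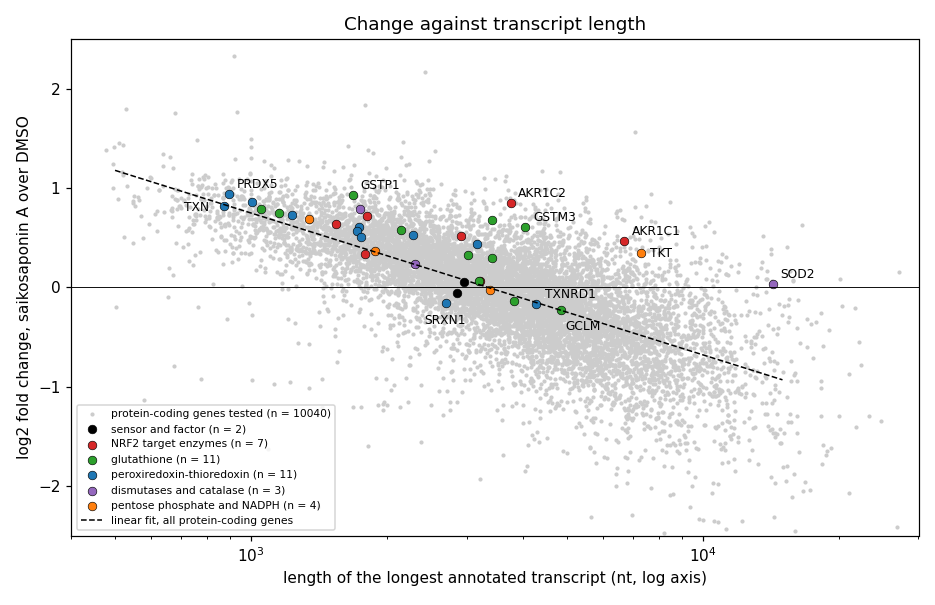
Log2 fold change (saikosaponin A over DMSO, edgeR) against the length of the longest annotated transcript (nt, log axis) for 10040 protein-coding genes in grey and the 38 tested members coloured by role, with a dashed linear fit over all genes; 23 grey points lie outside the axes. Short members such as TXN and PRDX5 lie near the line, and AKR1C2, GSTM3, AKR1C1, TKT and SOD2 lie above it.

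The antioxidant response element was looked for in the RefSeq promoters (GRCh38.p14), in the 250 bases before each gene's RefSeq start. That start can differ from the gene bounds given elsewhere here. The deposited rows of GSTO1, GSTP1 and PGD begin at 104235356, 67583742 and 10398592, ahead of the matched bases. The stretch given for GCLM runs across the bound of its row at 93909456. The core of the element was searched as TGACNNNGC on both strands. Of 33 matched members 6 held it (18.2%), against 3013 of 27305 promoters. The 7 matches are shown because NRF2 binds this motif; capitals mark the 9 matched bases, each sequence runs 5′ to 3′ on the gene's strand, and GCNNNGTCA is the motif read on the opposite strand.
GCLM (chr1:93909436-93909484, minus strand): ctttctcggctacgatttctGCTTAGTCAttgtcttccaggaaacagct
TXNRD1 (chr12:104215660-104215708, plus strand): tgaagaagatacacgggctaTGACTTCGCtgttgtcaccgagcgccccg
ME1 (chr6:83431160-83431208, minus strand): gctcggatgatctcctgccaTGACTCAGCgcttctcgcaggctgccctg
GSTP1 (chr11:67583726-67583774, plus strand): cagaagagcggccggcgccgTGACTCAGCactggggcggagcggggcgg
GSTO1 (chr10:104254646-104254694, plus strand): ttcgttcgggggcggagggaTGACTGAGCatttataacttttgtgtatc
GSTO1 (chr10:104254711-104254759, plus strand): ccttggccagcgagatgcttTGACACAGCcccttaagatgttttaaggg
PGD (chr1:10398843-10398891, plus strand): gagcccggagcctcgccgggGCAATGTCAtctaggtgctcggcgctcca
The matches in GSTP1 and ME1 also hold TGACTCA, the motif of AP-1. The genes with a match did not move together: GSTP1, GSTO1 and PGD rose, GCLM was the member that fell, and ME1 (log2 fold change -0.02) and TXNRD1 (-0.16) did not pass.

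The factor and its sensor showed no detectable difference. NFE2L2 (chromosome 2, 177227595 to 177287777) had 91.2, 87.8 and 115 CPM in DMSO replicates 1 to 3 and 108, 84.2 and 90.8 with saikosaponin A. The high values were those of DMSO replicate 3 and saikosaponin A replicate 1, and the groups overlapped (log2 fold change -0.06 ± 0.13 SE, edgeR adjusted p = 0.743). Once the mitochondrial share entered the fit as a covariate, NFE2L2 passed as lower (-0.14, edgeR adjusted p = 0.0171). KEAP1 (chromosome 19, 10486125 to 10503356) had 65.2, 62.8 and 57.2 CPM in DMSO and 57.8, 70.6 and 64.4 with saikosaponin A, again overlapping (0.06 ± 0.09, edgeR adjusted p = 0.622). Both genes overlap another annotated gene on their strand, and how reads in such overlaps were assigned is not stated.

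Among the NRF2 target enzymes, NQO1, PIR and the AKR1C genes rose. Of 7 tested, 5 rose, against 25.9% of all tested rows, and the others, UGDH and EPHX1, did not pass. AKR1C2, a ketosteroid reductase (chromosome 10, 4987400 to 5017955), had 49.1, 45.6 and 34.2 CPM in DMSO and 68.4, 80.7 and 83.2 with saikosaponin A. All saikosaponin A libraries were above all DMSO libraries, a 1.80-fold rise (log2 0.85 ± 0.15 SE, edgeR adjusted p = 0.00304). AKR1C3, which reduces prostaglandins and steroids, had 142, 148 and 110 CPM in DMSO and 186, 236 and 234 after treatment, without overlap (edgeR adjusted p = 0.00516). Corrected for length, its log2 fold change went from 0.71 to 0.35 and did not pass (edgeR adjusted p = 0.0518), while it passed at 0.43 by principal transcript (0.0314). AKR1C1 averaged 57.3 ± 9.43 CPM in DMSO and 79.2 ± 10.3 after treatment (SD, n = 3), a rise (edgeR adjusted p = 0.0319). It did not pass when saikosaponin A replicate 2 (edgeR adjusted p = 0.105) or 3 (0.0969) was left out. The 3 AKR1C genes are close paralogs lying side by side, so reads may have been shared between them and their separate values are uncertain.

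NQO1, the quinone reductase that is the customary NRF2 readout (chromosome 16, 69706996 to 69726668), had 209, 221 and 189 CPM in DMSO and 264, 300.5 and 323 with saikosaponin A. The groups did not overlap, and the rise was 1.43-fold (log2 0.52 ± 0.10 SE, edgeR adjusted p = 0.00403). Corrected for length it was 0.45 ± 0.09 (edgeR adjusted p = 0.00801). PIR, an iron-binding nuclear protein gene on the X chromosome, had 42.2, 42.8 and 40.8 CPM in DMSO and 57.0, 69.7 and 68.8 after treatment. PIR thus rose 1.55-fold (edgeR adjusted p = 0.00148). Corrected by longest transcript, its log2 fold change was 0.17 (edgeR adjusted p = 0.107). It passed at 0.25 by principal transcript (edgeR adjusted p = 0.0332) and at 0.32 by counts and FPKM (0.0126). EPHX1, an epoxide hydrolase, had 97.3, 94.1 and 125 CPM in DMSO and 161, 121 and 118 after treatment, so the groups overlapped through DMSO replicate 3. UGDH, which makes UDP-glucuronate, stayed between 53.0 and 62.3 CPM in all 6 libraries.

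OSGIN1 and AKR1B10 were too low to test. OSGIN1, an oxidative stress response gene, lay between 0.433 and 0.591 FPKM across the 6 libraries. AKR1B10, an aldo-keto reductase gene known for high expression in liver tumours, had 22, 11 and 5 counts in DMSO and 10, 17 and 0 with saikosaponin A.

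**Figure D2:**
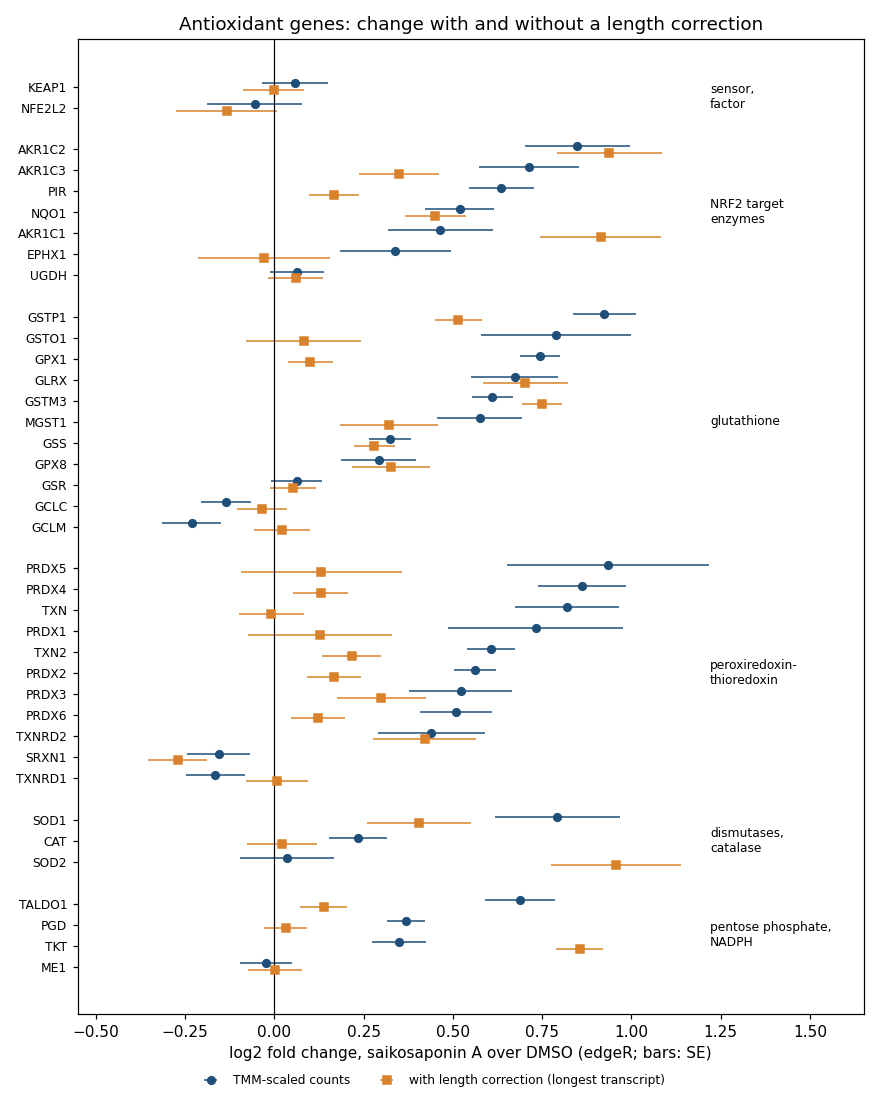
Log2 fold change of the 38 tested members by role (saikosaponin A over DMSO, edgeR; bars are SE), from TMM-scaled counts (circles) and with the length correction by longest transcript (squares). The peroxiredoxin and thioredoxin squares run from -0.27 (SRXN1) to 0.42 (TXNRD2). Those of NQO1, AKR1C1, AKR1C2, GSTP1, GSTM3, GLRX and TKT run from 0.45 (NQO1) to 0.94 (AKR1C2). For SOD2 the circle is at 0.04 and the square at 0.96.

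The 2 subunits of glutamate-cysteine ligase, which makes the first and rate-limiting step of glutathione synthesis, did not rise. GCLM, the modifier subunit (chromosome 1, 93885199 to 93909456), had 37.0, 36.0 and 40.3 CPM in DMSO and 29.7, 32.4 and 34.3 with saikosaponin A. All treated libraries were below all DMSO libraries, and the log2 fold change of GCLM was -0.23 ± 0.08 (SE, edgeR adjusted p = 0.0494). That call was lost when any 1 of the 6 libraries was left out (edgeR adjusted p from 0.055 without saikosaponin A replicate 3, 0.0562, 0.0821 and 0.0832 without DMSO replicates 2, 3 and 1, and 0.112 and 0.113 without saikosaponin A replicates 1 and 2) and after the correction for length (0.02, edgeR adjusted p = 0.852). GCLC, the catalytic subunit, had 58.1, 59.2 and 53.8 CPM in DMSO and 49.4, 52.6 and 53.8 after treatment. The GCLC groups touched without overlapping, and the difference did not pass (-0.14 ± 0.07, edgeR adjusted p = 0.14); without DMSO replicate 3 GCLC passed as lower (-0.19, edgeR adjusted p = 0.0488). GSS, which joins glycine to complete glutathione, averaged 70.3 ± 2.80 CPM in DMSO and 88.1 ± 1.69 after treatment (SD, n = 3), a 1.25-fold rise (edgeR adjusted p = 0.00394). GSR, which reduces oxidised glutathione, had 74.6, 71.2 and 74.4 CPM in DMSO and 71.4, 82.2 and 76.2 with saikosaponin A, an overlap with no pass (edgeR adjusted p = 0.481).

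Most genes that use glutathione rose. In the glutathione group as a whole 7 of 11 rose and 1 fell, against 25.9% and 27.9% of all tested rows. GSTP1, a glutathione transferase that conjugates electrophiles (chromosome 11, 67583742 to 67586656), had 177, 183 and 154 CPM in DMSO and 303, 327 and 347 after treatment. The lowest treated library was above the highest DMSO library, and GSTP1 rose by 0.92 on the log2 scale, with an SE of 0.09 (edgeR adjusted p = 3.06e-04). After length correction it was 0.52 ± 0.07 (edgeR adjusted p = 0.00169). GSTM3, another transferase, had 132, 137 and 137 CPM in DMSO and 208.5, 199 and 213 after treatment. The longest GSTM3 transcript has 4046 nt, and protein-coding genes of 4000 to 6000 nt had a median log2 fold change of -0.23. That of GSTM3 was 0.61 ± 0.06 without and 0.75 ± 0.06 with the length correction. GLRX, a glutaredoxin that removes glutathione from protein thiols, had 16.3, 15.97 and 13.1 CPM in DMSO and 21.3, 25.8 and 25.2 after treatment, a 1.59-fold rise. Its corrected value was 0.70 by the longest transcript (3407 nt) and 0.23 by the principal one (1366 nt), the latter without a pass (edgeR adjusted p = 0.118).

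GPX1, a cytosolic selenium-dependent glutathione peroxidase, varied little between libraries. Its values were 67.4, 67.7 and 64.1 CPM in DMSO and 111, 112 and 111 with saikosaponin A, a 1.68-fold rise (edgeR adjusted p = 1.48e-04). Its longest transcript has 1151 nt, and the correction took the log2 fold change from 0.74 to 0.10 (edgeR adjusted p = 0.262). By principal transcript GPX1 passed at 0.20 (edgeR adjusted p = 0.0484), and by counts and FPKM it did not (0.04, 0.68). GSTO1, an omega-class transferase, had 55.3, 66.5 and 44.2 CPM in DMSO and 69.5, 108 and 109 after treatment. The groups did not overlap, but saikosaponin A replicate 1 lay close to DMSO replicate 2, and the 1.73-fold rise (edgeR adjusted p = 0.0174) did not pass once DMSO replicate 1 (0.0531) or saikosaponin A replicate 2 (0.062) or 3 (0.0611) was left out. GSTO1 passed in none of the 3 length-corrected fits to 6 libraries, standing at 0.08 by longest transcript (edgeR adjusted p = 0.729). MGST1, a membrane-bound transferase, averaged 188 ± 23.7 CPM in DMSO and 279 ± 33.6 after treatment (SD, n = 3), a 1.49-fold rise (edgeR adjusted p = 0.00655). Its log2 fold change of 0.57 became 0.32 by longest transcript (edgeR adjusted p = 0.118) and -0.07 by principal transcript (0.796), and neither passed. By counts and FPKM MGST1 was at 0.84 and passed (edgeR adjusted p = 0.00148). GPX8, a peroxidase of the endoplasmic reticulum, had 36.7, 41.0 and 44.3 CPM in DMSO and 55.9, 45.5 and 48.1 after treatment, without overlap and just outside the threshold (edgeR adjusted p = 0.0521); it passed without DMSO replicate 3 (0.0493).

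Of 11 peroxiredoxin and thioredoxin genes 9 rose, against 25.9% of all tested rows, and the others, TXNRD1 and SRXN1, did not pass. PRDX5, a peroxiredoxin of mitochondria, peroxisomes and cytosol (chromosome 11, 64318121 to 64321811), had 136, 145 and 76.5 CPM in DMSO and 159, 261 and 263 with saikosaponin A. DMSO replicate 3 was far below the other DMSO libraries, and saikosaponin A replicate 1 was far below the other treated ones. The rise was 1.91-fold (log2 0.94 ± 0.28 SE, edgeR adjusted p = 0.0275). It did not pass when DMSO replicate 1 (0.0522), or saikosaponin A replicate 2 (0.0875) or 3 (0.0872), was left out of the edgeR fit. PRDX1, the abundant cytosolic peroxiredoxin, had 989, 1096 and 656 CPM in DMSO and 1080, 1722 and 1752 after treatment. Here the groups overlapped, since saikosaponin A replicate 1 lay below DMSO replicate 2, and the 1.66-fold rise (edgeR adjusted p = 0.0395) did not pass without DMSO replicate 1 (0.0785) or 3 (0.0771), or without saikosaponin A replicate 2 (0.12) or 3 (0.121).

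PRDX4, the peroxiredoxin of the endoplasmic reticulum, had 190, 198 and 157 CPM in DMSO and 282, 350.5 and 359 after treatment, a 1.82-fold rise without overlap (edgeR adjusted p = 0.00147). TXN, cytosolic thioredoxin (chromosome 9, 110243810 to 110256507), had 212, 222 and 182 CPM in DMSO and 287, 396 and 405 after treatment, a 1.76-fold rise (edgeR adjusted p = 0.00339). Its longest transcript has 869 nt, and the corrected log2 fold change was -0.0080 ± 0.09 (edgeR adjusted p = 0.958). Among protein-coding genes under 1000 nt the middle 50% of log2 fold changes ran from 0.59 to 0.94 with the median at 0.78, and TXN (0.82) and PRDX5 (0.94) both lay in that span. TXN2 and PRDX3, the thioredoxin and peroxiredoxin of mitochondria, rose 1.52-fold and 1.44-fold, PRDX2 rose 1.48-fold and PRDX6 1.42-fold. PRDX3 did not pass without saikosaponin A replicate 2 (edgeR adjusted p = 0.0714) or 3 (0.0713). Corrected by longest transcript, 0 of the 11 passed as higher by edgeR, and 3 were higher at an unadjusted p below 0.05. By principal transcript TXN2 passed (0.30, edgeR adjusted p = 0.0282). With the length from counts and FPKM, TXNRD2 (0.75, edgeR adjusted p = 0.0104) and PRDX4 (0.39, 0.0134) passed as higher and SRXN1 as lower (-0.46, 0.00391). In the 4 libraries of lower mitochondrial share, corrected by longest transcript, 7 of the 11 passed as higher and 1 as lower.

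Among the enzymes that recharge the thioredoxin system, TXNRD2 rose, and TXNRD1 and SRXN1 did not pass. TXNRD1, the cytosolic thioredoxin reductase, a selenoprotein and an NRF2 target (chromosome 12, 104215779 to 104350307), had 1040, 1076 and 959.6 CPM in DMSO and 846, 943 and 955 with saikosaponin A. The treated libraries lay just below the DMSO ones, and the difference did not pass (-0.16 ± 0.08, edgeR adjusted p = 0.131). SRXN1, sulfiredoxin, which rescues overoxidised peroxiredoxins, had 91.6, 90.3 and 77.8 CPM in DMSO and 75.4, 83.7 and 74.0 after treatment, overlapping (-0.16 ± 0.09, edgeR adjusted p = 0.167). After length correction by longest transcript SRXN1 passed as lower (-0.27 ± 0.08, edgeR adjusted p = 0.0431), but not by principal transcript (-0.20, 0.111). TXNRD1 was at 0.01 by either length. Without DMSO replicate 3 both passed as lower (edgeR adjusted p = 0.0491 for TXNRD1 and 0.0312 for SRXN1). TXNRD2, the mitochondrial reductase, averaged 24.9 ± 4.83 CPM in DMSO and 33.7 ± 3.46 after treatment (SD, n = 3), and rose 1.36-fold with overlapping groups (edgeR adjusted p = 0.0423). It did not pass without DMSO replicate 1 (0.131) or 3 (0.102), or without saikosaponin A replicate 2 (0.12) or 3 (0.122).

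Of the superoxide dismutase genes and catalase, SOD1 and CAT rose and SOD2 did not pass, where 25.9% of all tested rows rose. With the length correction by longest transcript 1 of these 3 rose (SOD2), against 16.6% of all tested rows. SOD1, the copper-zinc enzyme of the cytosol (chromosome 21, 31659666 to 31668931), had 201, 201 and 144 CPM in DMSO and 250, 354 and 344 after treatment. The groups did not overlap, and SOD1 rose 1.73-fold (log2 0.79 ± 0.18 SE, edgeR adjusted p = 0.00854). SOD1 passed in none of the 3 length-corrected fits to 6 libraries, at 0.41 by longest transcript (edgeR adjusted p = 0.0723), 0.14 by principal transcript (0.446) and 0.35 by counts and FPKM (0.0884). SOD2, the manganese enzyme of mitochondria, had 91.3, 89.0 and 72.8 CPM in DMSO and 72.1, 94.3 and 93.0 after treatment, the low value of each group again being DMSO replicate 3 and saikosaponin A replicate 1 (log2 0.04 ± 0.13, edgeR adjusted p = 0.837). Its longest annotated transcript has 14266 nt, and with the length correction SOD2 passed as higher (0.96 ± 0.18, edgeR adjusted p = 0.0076). A second annotated gene of the same name overlaps SOD2 on its strand, which leaves its count uncertain. CAT, the peroxisomal catalase, had 70.8, 68.9 and 76.8 CPM in DMSO and 92.5, 82.4 and 79.5 after treatment, without overlap. Its 1.18-fold rise (edgeR adjusted p = 0.0446) did not pass without DMSO replicate 1 (0.135) or 2 (0.147), without saikosaponin A replicate 1 (0.0951), 2 (0.0863) or 3 (0.0542), or after length correction (log2 0.02).

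Of the NADPH suppliers, the 3 pentose phosphate genes rose and malic enzyme did not pass, where 25.9% of all tested rows rose. With the length correction by longest transcript 1 of these 4 rose (TKT), against 16.6% of all tested rows. TALDO1, transaldolase, had 169, 184 and 159 CPM in DMSO and 240, 290 and 295 after treatment, a 1.61-fold rise (edgeR adjusted p = 0.00144). PGD, 6-phosphogluconate dehydrogenase, which makes NADPH, had 215, 221 and 216 CPM in DMSO and 283, 285 and 274 after treatment, a 1.29-fold rise with little spread (edgeR adjusted p = 0.00151). Corrected by longest transcript, neither passed (log2 0.14 for TALDO1 and 0.03 for PGD). By principal transcript TALDO1 passed (0.23, edgeR adjusted p = 0.0438) and PGD did not (0.11, 0.19). By counts and FPKM TALDO1 (0.45, edgeR adjusted p = 0.00476) and PGD (0.21, 0.0237) both passed. TKT, transketolase (chromosome 3, 53224712 to 53256052), had 1067, 1081 and 1159 CPM in DMSO and 1470, 1384 and 1359 after treatment. TKT rose 1.27-fold without overlap (edgeR adjusted p = 0.00765). ME1 had 73.1, 81.4 and 78.6 CPM in DMSO and 81.1, 75.6 and 72.6 after treatment (edgeR adjusted p = 0.798).

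**Figure D3:**
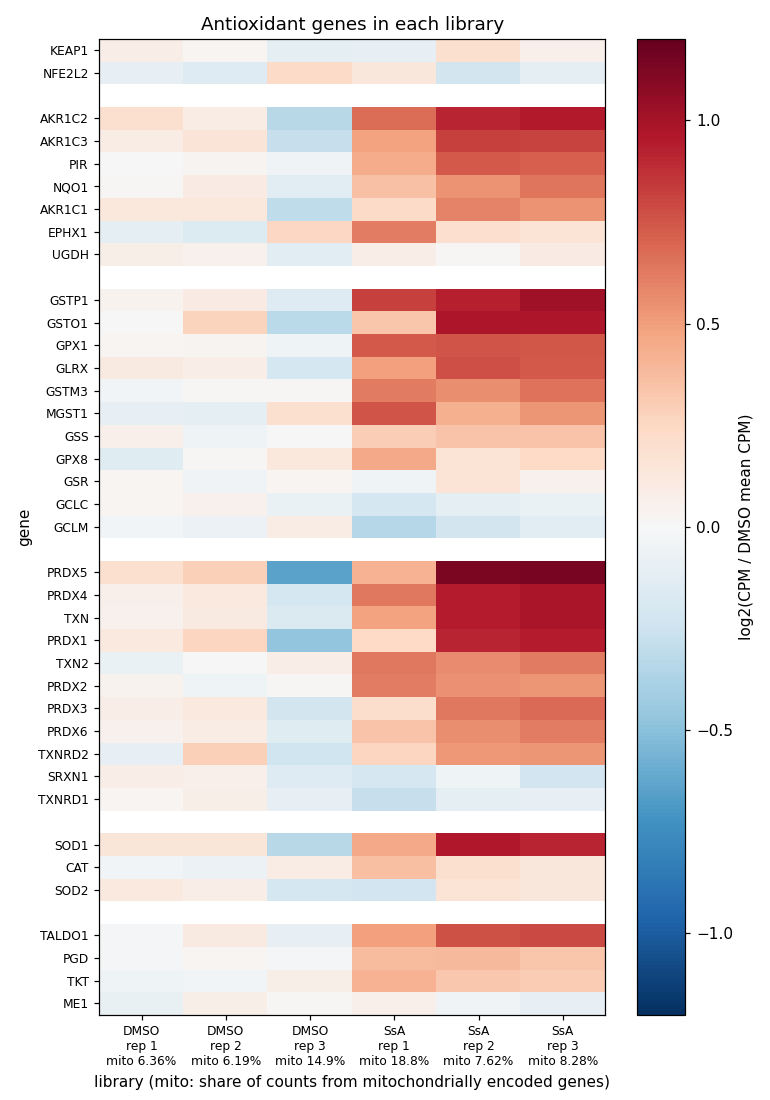
Each tested member (rows, by role) in each of the 6 libraries (columns), as log2 of its CPM over the DMSO mean; the share of counts from mitochondrially encoded genes is under each column. DMSO replicate 3 and saikosaponin A replicate 1, with shares of 14.9% and 18.8%, are lower than the rest of their group for PRDX1, PRDX5, GSTO1 and SOD1.

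The members also varied within each group, and in the same way in both. DMSO replicate 3 was below the mean of the other DMSO libraries in 26 of the 38, and saikosaponin A replicate 1 below the other treated ones in 26. Of 11392 tested rows with counts in all libraries, 5705 and 6169 were below in the same 2 comparisons. Across the 38 members these 2 log2 differences had a Spearman correlation of 0.88, and 0.69 across 11392 tested rows with counts in all libraries; as genes share libraries, this is a description. PRDX5 was lowest in both, at -0.88 in DMSO and -0.72 with saikosaponin A, followed in DMSO by PRDX1 at -0.67 (-0.69 with saikosaponin A). EPHX1 was highest in both, at 0.38 and 0.43. These are the libraries with more mitochondrially encoded RNA.

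The treatment difference was also read within each kind of library. Between saikosaponin A replicate 1 and DMSO replicate 3, which have no replicate, the median log2 ratio of the members was 0.49, and 31 of 38 were above 0. Over 11392 tested rows with counts in all libraries the median was -0.0005, and 5695 were above 0. In the fit to the other 4 libraries the median of the members was 0.50, and 28 of them rose and 3 fell, against 33.3% and 34.5% of all tested rows. PRDX1 differed by 0.72 between the first pair and by 0.71 in the 4 libraries (edgeR adjusted p = 2.87e-06). All 26 members called higher over 6 libraries were also higher in these 4, with EPHX1 and GPX8 in addition. The 3 that fell there were GCLC (-0.17, edgeR adjusted p = 0.0102), TXNRD1 (-0.18, edgeR adjusted p = 6.1e-04) and SRXN1 (-0.23, edgeR adjusted p = 0.00985), while GCLM did not pass (-0.16, edgeR adjusted p = 0.0623). In the first pair all 4 of these genes were below 0 as well, from -0.05 for SRXN1 to -0.44 for GCLM. With the length correction in the 4 libraries, a fit added after the data were seen, 22 members rose and SRXN1 fell (-0.34, edgeR adjusted p = 0.0021), against 26.6% and 26% of all tested rows.

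By FPKM, which is per length, the members spanned a wide range of levels. PRDX1 was highest at 560 ± 178 FPKM in DMSO (SD, n = 3), then TXN at 186 ± 33.4, PRDX6 at 180 ± 29.6 and TXNRD1 at 139 ± 19.3. TXN, PRDX6, TXNRD1 and PRDX5 (128 ± 48.0) each overlapped the next in this order across their DMSO libraries. Within each DMSO library TXN was above PRDX6 and PRDX6 above TXNRD1, while PRDX5 lay on both sides of TXNRD1. At the low end of the tested members were GLRX at 2.21 ± 0.431 and TXNRD2 at 2.77 ± 0.714 FPKM, whose libraries also overlapped. TXNRD1 overlapped TXN, the thioredoxin it serves, across the DMSO libraries, but TXN was the higher within each library. With saikosaponin A they did not overlap (TXN 213 to 335 FPKM, TXNRD1 94.6 to 119). In DMSO the mitochondrial TXNRD2 lay far below its partner TXN2 (25.7 ± 1.31 FPKM).

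**Figure D4:**
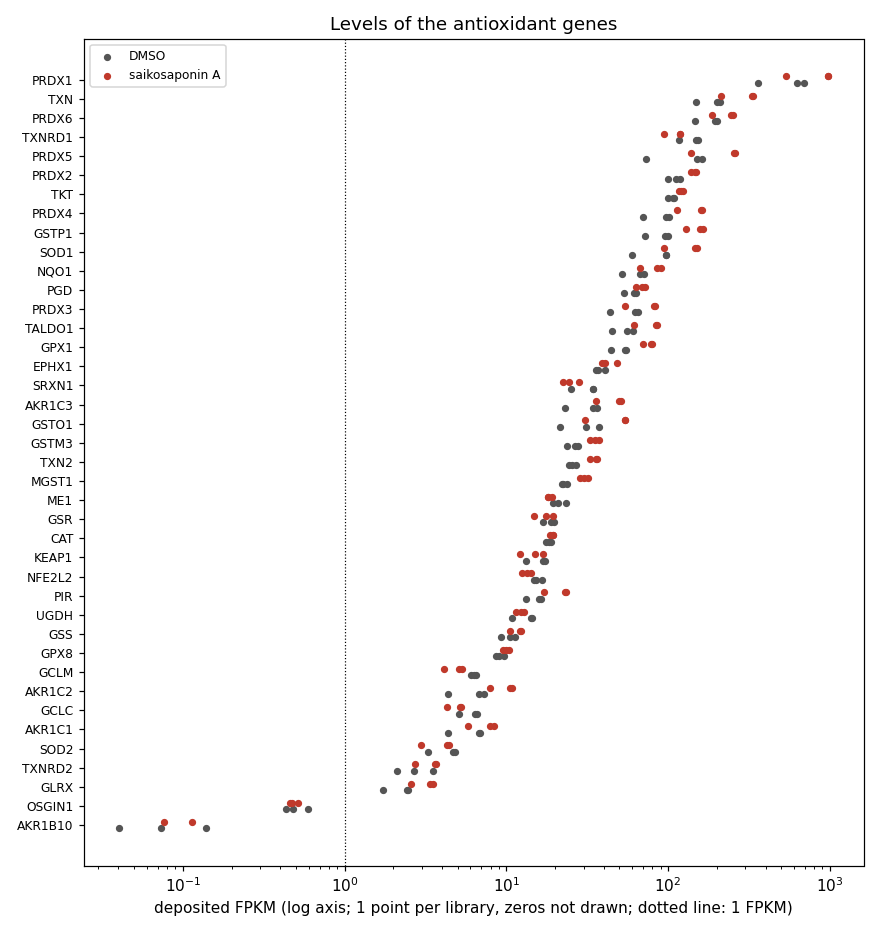
Deposited FPKM (log axis) of all 40 members in each library, DMSO in grey and saikosaponin A in red, ordered by the DMSO mean; values of 0 are not drawn. PRDX1 is highest, and OSGIN1 and AKR1B10 lie below the dotted line at 1 FPKM.

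The other genes of the pathway, in lists also drawn up with earlier results of these data known, moved in both directions. Over all tested rows 25.9% rose and 27.9% fell, and 16.6% and 15.9% did with the length correction. Of 15 tested NRF2 regulators beyond the members, 3 rose and 9 fell. Those of smallest p that fell were AMER1 (log2 fold change -1.59), CREBBP (-1.98), which encodes a coactivator of NRF2, and GSK3B (-0.56), a kinase that marks NRF2 for degradation. MAFG, a small MAF partner of NRF2, fell by 0.82 on the log2 scale (± 0.11 SE) and MAFF rose by 1.10 ± 0.22 from a low level (4.45 ± 0.94 CPM in DMSO; SD, n = 3). SQSTM1, whose protein p62 can bind KEAP1, rose by 0.30 ± 0.07, and RBX1, a part of the ligase that KEAP1 serves, by 0.92 ± 0.17. The longest transcripts have 10803 nt for CREBBP, 8443 nt for AMER1 and 7711 nt for GSK3B. After length correction 5 of the 15 fell and 4 rose, with CREBBP at -1.22, AMER1 at -0.99 and GSK3B at -0.02. For GSK3B the principal transcript has only 1636 nt, and corrected by it the value was -0.90 (edgeR adjusted p = 0.00115).

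Of 26 other NRF2 targets, 9 rose and 7 fell. HMOX1, heme oxygenase, a strongly inducible NRF2 target, had 15.9, 16.97 and 17.8 CPM in DMSO and 20.8, 19.9 and 17.1 with saikosaponin A, overlapping (log2 0.19 ± 0.10, edgeR adjusted p = 0.159). The taurine transporter gene SLC6A6 and the cystine transporter gene SLC7A11 each fell by 0.79 on the log2 scale, and the export pump gene ABCC1 fell by 0.62; with the length correction the values were -0.35, -0.11 and -0.18, and SLC7A11 no longer passed. CBR1, a carbonyl reductase, rose by 0.65 ± 0.07, BLVRB, a biliverdin reductase, by 0.86 ± 0.15 and HTATIP2 by 0.61 ± 0.14. Length-corrected, CBR1 was at 0.33 and passed, whereas BLVRB (0.34, edgeR adjusted p = 0.069) and HTATIP2 (0.23, edgeR adjusted p = 0.147) did not, and of the 26 targets 6 rose and 3 fell.

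Glutathione genes beyond the members rose in 19 of 26, the remaining 7 not passing. MGST3, GLRX3 and the mitochondrial glutathione carrier gene SLC25A39 had the smallest p and rose by 0.68, 0.52 and 0.49 on the log2 scale. GPX4, which reduces lipid peroxides, had 87.9, 95.2 and 109 CPM in DMSO and 179, 152 and 155 after treatment; its log2 fold change of 0.74 became 0.11 with the length correction. With that correction 10 of the 26 rose. Of 21 other thioredoxin-related genes 9 rose, led by TXNL4A, MSRB2 and TMX2 (log2 0.53, 1.06 and 0.52), and TXNIP, which binds and inhibits thioredoxin, did not pass (0.15, edgeR adjusted p = 0.106). Corrected for length, 5 of the 21 rose and 1 fell, and TMX2 was at 0.11 (edgeR adjusted p = 0.539). Of 15 other pentose phosphate and NADPH genes 6 rose and 1 fell. H6PD, the hexose-6-phosphate dehydrogenase of the endoplasmic reticulum, had a log2 fold change of -1.57 ± 0.08, and of -0.92 with the length correction. RBKS, IDH2 and FDXR rose by 1.31, 0.32 and 0.72.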

How the data were processed

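Per the labels' protocols, poly(A)-selected RNA gave dUTP libraries. The submitters' processing notes name StringTie 1.3.4d, HISAT2 2.0.4, cutadapt 1.9 and GRCh38; annotation release, strand setting and counting rule were not given in the sources used here. Per the file headers, the authors deposited whole-number counts, taken as raw, and FPKM, which they scaled by length and library size. Column names with SA were taken for saikosaponin A, the others for DMSO. Counts were tested with edgeR 4.0.16 (R 4.3.3; TMM, quasi-likelihood, two-sided, Benjamini-Hochberg over 11427 rows); SE is the fold change over the root of F. The biological coefficient of variation was 15.3%. Alternatives used DESeq2 1.42.0 and limma 3.58.1 (pseudocounts 1 and 0.1). The length correction removed each library's linear trend on log2 transcript length (GENCODE 29) through offsets and rescaled by TMM; it was tested on simulated data. A sign change counted as a reversal only where 1 of the fits called the gene. Members and lists were chosen with earlier results of these data known. Per-library values were given by rule for the regulators and, per role, for up to 4 called members of largest change and 2 uncalled ones of highest FPKM; GCLM, GCLC, GSTM3, TKT and MAFG were added after their values were seen. Of the other pathway genes, the 3 of smallest p per list and direction were named, and HMOX1, SLC7A11, GPX4 and TXNIP. Of 125 such genes, 5 had no row and were not analysed here.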

Additional observations from a re-analysis of the deposited data

How the results depend on the processing

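The number of members called higher was 26 and of members called lower 1. The first was 8 on the scale of log2(FPKM + 1) or log2(FPKM + 0.1) with limma, 0 with TPM (limma), 9 with the length correction by longest transcript, 16 by the length from counts and FPKM, and, in a fit added after seeing the data, 13 by principal transcript. The number lower was 0 with upper-quartile scaling, TPM, no expression filter or the principal transcript, 4 under a filter of mean FPKM 5 or more, and 3 with the mitochondrial share as a covariate or in the 4 libraries of lower share. Leaving out 1 library gave 19 to 26 higher and 0 to 3 lower members. Over all tested rows, 2956 were higher and 3190 lower; higher rows numbered 914 and 886 with FPKM and 49 with TPM, and higher and lower ones 1666 and 1762 under that filter, 1892 and 1816 with the length correction, and 1579 and 1802 by principal transcript. The numbers did not pair the libraries (correlations of deviations -0.336, 0.287 and -0.351). With the replicate block 20 members rose (AKR1C1, PRDX1, PRDX3, PRDX5, CAT and TKT no longer passing) and 0 fell, with 2074 and 2542 of all rows. With the block and the length correction 8 members rose and 0 fell, with 1052 and 1060 of all rows. Signs turned, none past the threshold, for GCLM (0.022 with the length correction and 0.020 with the block added, 0.068 by principal transcript, 0.10 in the 4 libraries with the correction), TXN (-0.0080 with the correction and -0.014 with the block added), MGST1 (-0.066) and PRDX2 (-0.074) by principal transcript, CAT (-0.016 in the 4 libraries with the correction), and on the TPM scale GSS (-0.039), CAT (-0.13) and TKT (-0.015). The cause was not tested.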
